A study of Mus musculus with 18 samples.

Results

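The 96 genes described here encode parts of the cilium and of its microtubule core, the axoneme, and were measured in mouse small intestinal crypt cells sorted into 3 gates by a Flattop (Fltp) reporter. They were chosen by name among the 19938 genes on the arrays: axonemal dynein chains (Dnah, Dnaic, Dnal, Dnali1), dynein assembly factors (Dnaaf), cilia and flagella associated proteins (Cfap), tektins (Tekt), radial spoke head proteins (Rsph), intraflagellar transport proteins (Ift), Bardet-Biedl syndrome proteins (Bbs), tectonics (Tctn), and Foxj1, Rfx2, Rfx3 and Fam183b. Cfap126, the current symbol of Fltp itself, was left out as the reporter gene, and each gene was represented by its probe set with the highest mean over the 6 arrays. Classes were assigned by gene name. Of the 96 genes, 69 were counted as motile cilium genes. Another 25 serve transport or gating in primary and motile cilia alike and are called primary cilium genes here. Rfx2 and Rfx3 were counted in neither class. All Cfap genes went to the motile class, although Cfap410 is a basal body protein and Cfap20 is made in most cell types.

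All cells came from FltpZV/+ mice on the C57Bl6/J strain at 4 months of age, so the reporter-negative gate carries the reporter allele too and no wild-type animal stands beside it. The Fltp-Venus reporter (FVR) marks cells by activity of the Fltp locus, and the gates held cells with no, low or high fluorescence. Each array was hybridised with RNA from a pool of 2 animals, and there were 2 arrays in each gate. Whether cells of different gates came from the same pool is not given in the labels, so p-values measure the spread between these arrays, part of which may be technical. The study compared the 3 gates, and 12 further samples of the series were not analysed here.

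Cilia are hair-like organelles built on a ring of microtubule doublets. Motile cilia carry outer and inner dynein arms and radial spokes along the axoneme, and their gene programme is switched on by Foxj1 and by the RFX factors, which bind the X-box motif. Primary cilia lack these arms and serve as antennae; they are assembled by intraflagellar transport, gated by a transition zone and supplied with membrane cargo by the BBSome. The intestinal epithelium is not known for motile cilia, and Rfx3 is known from hormone-secreting cells as well as from ciliated ones.

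Values are robust multi-array average (RMA) signals on a log2 scale, and a gene was taken as above background where it exceeded 4.23. This level is the 95th percentile of 1207 olfactory, vomeronasal and trace amine receptor genes. The mean of 43 of the 96 genes was above that level, among them 25 motile and 16 primary cilium genes, and 36 of the 96 had no array above it. Array medians over all genes lay between 4.82 and 4.95, and the 2 arrays of a gate correlated at Pearson's r of 0.981 in the negative, 0.975 in the low and 0.946 in the high gate, across genes, which are not independent replicates. The second high array had the largest share of genes above background, at 69.6%, against 61.4% to 65.6% on the other 5 arrays. All 8 Paneth, 6 goblet and 6 stem cell markers listed for the crypt were above background on average.

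The start regions of the genes that passed a test are shown first, because Rfx3 is one of these genes and its family binds the X-box. Sequences are from RefSeq on build GRCm38.p6, read 5′ to 3′ on the gene's strand, as the 120 bases before the annotated start. Capitals mark the half-sites of the X-box (GTTNCC, on either strand). Fam183b lies at chr11:58801961-58802080, minus strand; Ift57 at chr16:49699174-49699293, plus strand; Dnah9 at chr11:66168552-66168671, minus strand; Rfx3 at chr19:28011167-28011286, minus strand; Dnah8 at chr17:30626816-30626935, plus strand.
Fam183b: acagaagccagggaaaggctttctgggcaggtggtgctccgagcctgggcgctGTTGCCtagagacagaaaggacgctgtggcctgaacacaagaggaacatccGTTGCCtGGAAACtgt
Ift57: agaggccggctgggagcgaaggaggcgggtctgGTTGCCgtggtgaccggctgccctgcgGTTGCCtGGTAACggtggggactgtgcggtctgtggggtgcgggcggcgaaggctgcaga
Dnah9: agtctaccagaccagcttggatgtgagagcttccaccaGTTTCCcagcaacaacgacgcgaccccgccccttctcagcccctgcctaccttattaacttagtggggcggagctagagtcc
Rfx3: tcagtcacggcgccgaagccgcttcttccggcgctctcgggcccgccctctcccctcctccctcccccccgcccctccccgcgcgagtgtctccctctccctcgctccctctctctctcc
Dnah8: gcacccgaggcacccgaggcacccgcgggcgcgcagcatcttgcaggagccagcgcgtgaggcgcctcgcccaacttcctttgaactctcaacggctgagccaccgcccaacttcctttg

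A full X-box was searched on both strands as the half-site GTTNCC followed, after 1 to 3 bases of any kind, by its reverse complement GGNAAC, in windows of 300 bases around the start. It was found in 9 of the 82 cilium genes with a promoter entry (11%) and in 244 of 27025 genes in all (0.903%). These letters were settled after several spellings had been searched, and the spacing of 1 base was added after the Fam183b and Ift57 sequences had been seen. Primary cilium genes held it in 4 of 22 windows and motile cilium genes in 5 of 58. A match is a run of letters in this window and was not tested as a binding site. The half-site GTTNCC alone, which every full X-box contains, occurred in 63 of the 82 windows (76.8%) and in 48.8% of all genes' windows, and the forkhead motif TGTTTAC in 4 of 82 (4.88%) and 4.05%.

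Besides Fam183b and Ift57, the windows with a full X-box belonged to Bbs7, Tctn1, Tctn3, Cfap298, Cfap20dc, Dnaaf6 and Dnaaf6b. For 6 of these genes the 30 bases around the motif are given to show how the spacing and the flanks vary, with the X-box in capitals. The motif began 121 bases before the start of Bbs7 (chr3:36613489-36613518, minus strand), 140 before that of Tctn3 (chr19:40612350-40612379, minus strand), 188 before that of Cfap298 (chr16:90935016-90935045, minus strand) and 102 before that of Cfap20dc (chr14:8666371-8666400, minus strand). In Dnaaf6 (chr1:31222772-31222801, plus strand) and Dnaaf6b (chrX:140062864-140062893, plus strand) it began 59 and 7 bases before the start, within nearly the same sequence, and whether the arrays tell these copies apart was not tested.
Bbs7: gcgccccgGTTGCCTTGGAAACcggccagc
Tctn3: tcccagcgGTTGCCAGGTAACgggaaccac
Cfap298: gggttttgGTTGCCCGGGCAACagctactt
Cfap20dc: gcccctcaGTTGCCTGGGCAACggctcagc
Dnaaf6: acaaagttGTTACCCAGGCAACagagcaac
Dnaaf6b: acaaagttGTTACCCGGGCAACagagagac

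In low against negative cells, 4 cilium genes rose, namely Fam183b, Ift57, Rfx3 and Dnah9, and the dynein chain gene Dnah8 fell. These 5 of 96 passed an adjusted p of 0.05 (limma, Benjamini-Hochberg over all genes), while 5.96% of all genes did, 3.42% higher and 2.54% lower, so the number of calls was near that of genes in general. In high against low cells the same 4 genes were lower and none of the 96 was higher; 4.91% of all genes were called there, 3.89% lower and 1.01% higher. In high against negative cells 0 of the 96 passed, and 12 had an unadjusted p under 0.05, where 4.71% of all genes passed (1.36% higher and 3.35% lower) and 22.2% had such an unadjusted p. The 2 comparisons with the low gate share its arrays, so a gene high there differs in both. In these sorted pools, fewer cells of a type and less RNA per cell cannot be told apart.

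Markers of several other cell types differed between the gates. In low against negative cells 3.42% of all genes were called higher and 2.54% lower, and in high against negative cells 1.36% and 3.35%. All 17 enteroendocrine markers rose from negative to low cells, with a summed linear level of 654 to 847 in negative, 50457 to 54544 in low and 2010 to 2894 in high cells. Of 10 lymphocyte markers 8 rose (summed level 5092 to 5873, then 16431 to 16943, then 1614 to 1624). Of 8 enteric neuron and glia markers 2 rose, Ret (log2 difference 2.56) and Snap25 (3.55). The median of the 8 was 0.35, and 2 were lower on average in low cells. The summed level of all 8 was 129 to 130, then 400 to 447, then 168 to 183. Paneth markers rose in low (7 of 8) and in high cells (8 of 8), and all 8 had their highest mean in the high gate. In low cells 3 of 8 myeloid and 1 of 10 stromal and endothelial markers (Vim, a call lost without any 1 of the 4 arrays compared, adjusted p up to 0.202) rose, while 8 of 9 cell cycle, 3 of 7 plasma and mast cell, 1 of 6 goblet and 1 of 8 enterocyte markers fell, and 0 of 7 tuft and 0 of 6 stem cell markers passed the test. The part of these cells in the cilium gene differences was not tested.

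Of the 3 transcription factors of ciliogenesis, 1 rose in low cells, where 3.42% of all genes did. Rfx3, a winged-helix factor needed for cilium assembly, read 4.46 and 5.14 on the negative arrays, 6.78 and 7.19 on the low arrays and 5.10 and 5.64 on the high arrays. Both low arrays stood above the other 4, which overlapped between negative and high. Rfx3 was 4.56-fold higher in low than in negative cells (log2 difference 2.19, SE 0.31, adjusted p = 0.0117). This call was lost without the first negative array (difference 1.85, adjusted p = 0.0944) and without the second low array (1.98, adjusted p = 0.0759). The fall from low to high cells was 3.07-fold (log2 difference -1.62, SE 0.31, adjusted p = 0.0364), and leaving out any 1 of the 6 arrays took its adjusted p to between 0.0509 and 0.181. With only the 2 gates fitted, with quantile normalization or with array weights, that adjusted p was 0.0542, 0.0585 and 0.0716.

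Foxj1, the master regulator of motile ciliogenesis, read 4.31 and 4.29 in negative, 4.24 and 4.49 in low and 4.65 and 4.63 in high cells. All 6 arrays were just above the background level. The low minus negative difference was 0.07 (95% confidence interval -0.37 to 0.50, adjusted p = 0.935) and the high minus negative difference 0.34 (-0.10 to 0.77, adjusted p = 0.323). Rfx2, the close relative of Rfx3 that acts in motile cilia and sperm, read 5.31 and 5.67, then 5.38 and 6.16, then 5.58 and 5.95. The 3 gates overlapped, and the low minus negative difference was 0.28 (SE 0.30, adjusted p = 0.781).

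Among the other RFX genes, taken from a list of 8 measured genes beyond Rfx2 and Rfx3, 1 rose and 0 fell in low cells. Of all genes 3.42% rose and 2.54% fell there. The RFX gene that rose was Rfx6, a factor of endocrine cells, with 3.72 and 3.55 in negative, 9.70 and 9.30 in low and 4.04 and 3.72 in high cells. Its negative and high arrays were all at or below background, so low cells were at least 38.7-fold higher (adjusted p = 0.000198 against negative, 0.000308 against high).

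Fam183b, a gene known from ciliated tissues, showed the largest difference of the 96. Its value was 4.94 and 6.26 on the negative arrays, 9.30 and 9.54 on the low arrays and 6.07 and 6.10 on the high arrays. The low arrays stood apart from all others, and the high arrays lay between the negative ones. Low cells were 14.1-fold above negative cells (log2 difference 3.82, SE 0.40, adjusted p = 0.00437) and high cells 10.1-fold below low cells (log2 difference -3.34, SE 0.40, adjusted p = 0.0069). Both calls held in each of the 15 alternative fits, with adjusted p up to 0.034 and 0.0486. High and negative cells differed by 0.48 (95% confidence interval -0.47 to 1.44, adjusted p = 0.503).

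**Figure D1:**
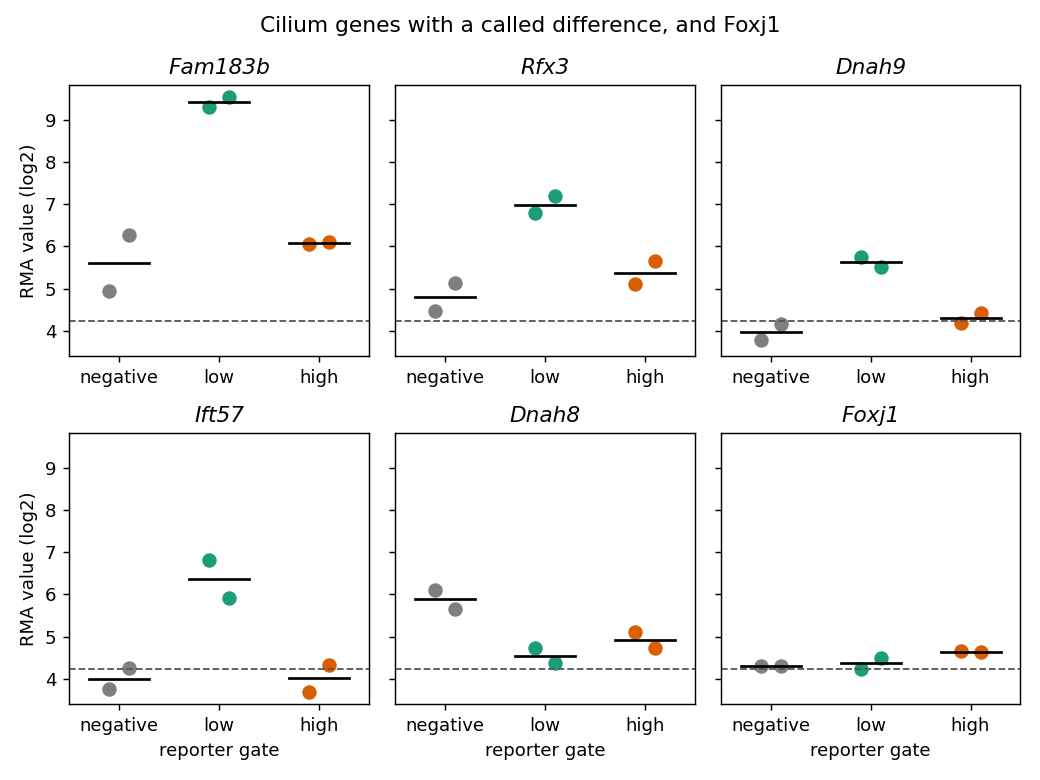
RMA values (log2) of the 5 cilium genes that passed a test and of Foxj1, with 1 point for each array, a bar for the mean of the 2 arrays of each reporter gate and a dashed line at the background level of 4.23. Fam183b, Rfx3, Dnah9 and Ift57 have both low arrays above the other 4, Dnah8 has both negative arrays above the other 4, and Foxj1 stays near the dashed line in all gates.

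The outer dynein arm, the motor of ciliary beating, was represented by 9 genes. Of these 1 rose and 1 fell in low cells, where 3.42% and 2.54% of all genes did. Dnah9, an outer arm heavy chain of respiratory cilia, read 3.78 and 4.16 in negative, 5.76 and 5.52 in low and 4.17 and 4.43 in high cells. Neither negative array was above background, so the rise in low cells was at least 2.66-fold (measured log2 difference 1.67, SE 0.22, adjusted p = 0.00903). Both low arrays were above the other 4, and high cells were 2.53-fold below low cells (log2 difference -1.34, SE 0.22, adjusted p = 0.0214). The rise was no longer called without the first negative array (1.48, adjusted p = 0.0919), the second negative array (1.86, adjusted p = 0.0527) or the first low array (1.55, adjusted p = 0.0567). The fall was lost without the first low array (-1.22, adjusted p = 0.13) and without the second (-1.46, adjusted p = 0.0801).

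Dnah8, an outer arm heavy chain known from sperm tails, went the other way. It read 6.10 and 5.67 in negative, 4.73 and 4.37 in low and 5.12 and 4.73 in high cells. Both negative arrays were above the other 4, and low cells were 2.52-fold below negative cells (log2 difference -1.34, SE 0.25, adjusted p = 0.0287). The call was lost without any 1 of the 4 arrays compared: without the first or second negative array the adjusted p was 0.196 or 0.0984, and without the first or second low array 0.0762 or 0.164. High minus negative was -0.96 (SE 0.25, adjusted p = 0.0865).

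The other 7 outer arm genes did not pass in any comparison. Dnal4, a light chain, was 5.64 and 5.55 in negative, 5.91 and 5.74 in low and 5.40 and 5.64 in high cells, with no difference past the test (low minus negative 0.23, adjusted p = 0.669). Dnah5, Dnah11 and Dnaic1, which with Dnah9 are the usual marks of a beating cilium, had values from 3.42 to 3.89 over the 6 arrays, all below background.

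None of the 11 inner dynein arm genes passed in any comparison, and 8 of them had means at or below background. Their mean was highest in the high gate in 11 of 11 genes, a gate that also held the highest mean of 47.9% of all genes and of 75.7% of those at or below background. Dnah3 read 5.76 and 5.80, then 5.61 and 5.67, then 6.12 and 5.97, with the high arrays above the rest by less than the test required (high minus low 0.41, SE 0.18, adjusted p = 0.233). Dnah3 has 33 probe sets, 7 of them above background, and their low minus negative differences ran from -0.32 to 0.22. Dnah7b was at or below background in negative and low cells (3.49 to 3.95) and read 4.47 and 4.72 in high cells, which puts high at least 1.29-fold above low (adjusted p = 0.0877). Dnah7a, Dnah7b and Dnah7c are near copies of one another, and whether their probe sets tell them apart was not tested.

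The 7 dynein assembly factors, which fold the arms in the cytoplasm, were each lower on average in low than in negative cells, with a median difference of -0.22 and none past the test. Over all genes the median was -0.03 and 45.1% were higher in low cells. Dnaaf5 differed most, with 6.04 and 6.43 in negative, 5.60 and 5.30 in low and 5.81 and 5.70 in high cells (low minus negative -0.78, SE 0.22, adjusted p = 0.0978). Its negative arrays did not overlap the others.

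Among 5 radial spoke genes and 5 tektins, single members stood out from their class without passing. Rsph9, a radial spoke head protein, read 3.88 and 3.37 in negative, 6.07 and 4.83 in low and 5.22 and 4.02 in high cells. Its replicates differed by more than 1 log2 unit in both reporter-positive gates, and the low minus negative difference of 1.83 had an SE of 0.51 (adjusted p = 0.101). Tekt2, a filament protein of the doublet microtubules, read 3.93 and 3.78 in negative, 4.55 and 4.81 in low and 4.20 and 4.16 in high cells (low at least 1.37-fold above negative, adjusted p = 0.0535). The other 4 tektins had means below background.

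Of the 30 Cfap genes, 0 passed in any comparison, and 19 had means at or below background. Cfap410, a basal body protein linked to inherited ciliopathy, was 4.59 and 4.79 in negative, 5.56 and 5.50 in low and 5.39 and 5.83 in high cells. Both reporter-positive gates stood above the negative arrays (low minus negative 0.84, SE 0.22, adjusted p = 0.0768, high minus negative 0.92, SE 0.22, adjusted p = 0.0658). Without the first high array the second difference was 1.14 with an adjusted p of 0.0303. Cfap20, which is made in most cell types, read 7.62 and 7.32, then 7.78 and 7.53, then 7.12 and 7.90, and its gates overlapped.

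**Figure D2:**
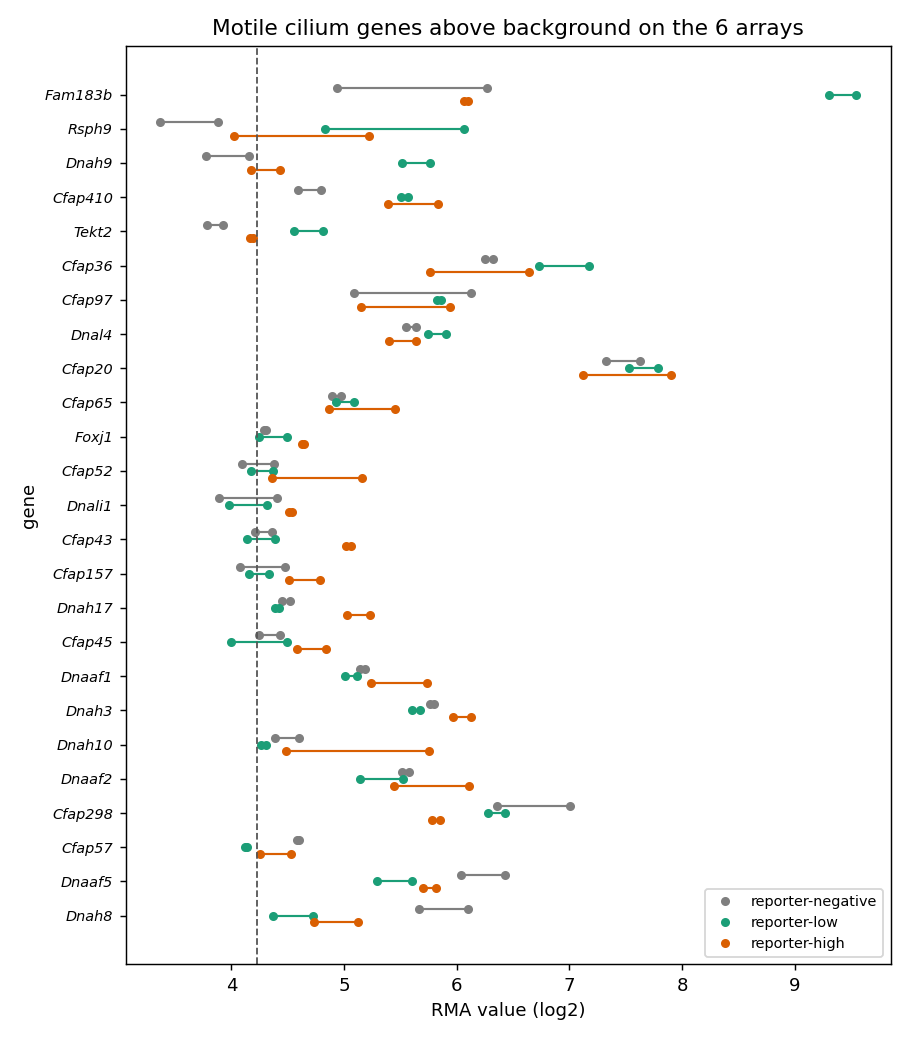
RMA values (log2) of the 25 motile cilium genes whose mean is above background, with each gate's 2 arrays as joined points (grey negative, green low, orange high) and a dashed line at 4.23, ordered by the low minus negative difference. Fam183b and Dnah9 have low arrays far to the right of the others, Dnah8 has its negative arrays to the right, and most other genes have gates that lie close together.

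Most primary cilium genes had a higher mean in low than in negative cells, and 1 of them passed the test. In 22 of the 25 the low mean exceeded the negative mean, with a median difference of 0.43, while over all genes the median was -0.03 and 45.1% were positive. Both low arrays lay above both negative arrays in 19 of the 25 (76.0%) and below them in 0, where 23.0% and 28.5% of all genes did. The low gate held the highest of the 3 means in 20 of the 25 (80.0%), against 24.2% of all genes. Above background, by the mean over all 6 arrays, it did so in 12 of 16 (75.0%), against 31.0% of all such genes. At or below background it did so in 8 of 9 (88.9%), against 11.9% of all such genes. The gene that passed was Ift57, 1 of 25, where 5.96% of all genes passed. Of the 25, 8 had an unadjusted p under 0.05, where 18.5% of all genes did.

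Ift57, a subunit of the IFT-B complex that carries cargo to the ciliary tip, read 3.75 and 4.26 in negative, 6.83 and 5.92 in low and 3.69 and 4.34 in high cells. Both low arrays were above the other 4, whose values overlapped. Low cells were 5.16-fold above negative cells (log2 difference 2.37, SE 0.37, adjusted p = 0.0167) and 5.13-fold above high cells (high minus low -2.36, SE 0.37, adjusted p = 0.0186). The first call was lost without the first negative array (2.11, adjusted p = 0.131), the second negative array (2.62, adjusted p = 0.0802) or the first low array (1.91, adjusted p = 0.0658), and the second without the first low array (-1.90, adjusted p = 0.0834). Its X-box lies 60 bases before the start, and that of Fam183b 16 bases before.

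The other 10 IFT-B genes did not pass in any comparison. Together with Ift57, 9 of 11 were higher in low than in negative cells, where 45.1% of all genes were, with a median of 0.40. Ift20, which moves cargo from the Golgi, read 8.02 and 8.24 in negative, 8.31 and 8.68 in low and 8.46 and 8.63 in high cells (low minus negative 0.37, adjusted p = 0.458). Ift52 read 6.19 and 6.26, then 6.66 and 6.46, then 6.10 and 4.98, so that its high arrays differed from each other by more than the gates did.

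The 3 IFT-A genes, of the complex that returns cargo to the cell body, each had their highest mean in low cells. Of all genes 24.2% did, and 0 of the 3 passed in any comparison. Ift122 was below background in negative cells (3.55 and 3.43), read 4.41 and 4.40 in low and 3.43 and 4.03 in high cells. Low cells were at least 1.13-fold above negative cells (adjusted p = 0.08). Ift43 read 6.62 and 6.84, then 6.82 and 6.96, then 6.73 and 6.97, with overlapping gates.

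All 6 BBSome genes were highest in low cells, where 24.2% of all genes were, and 3 of the 6 had means above background. They are among the 25 primary cilium genes counted above, and 0 of the 6 passed in any comparison. Their median low minus negative difference was 0.57, with a range from 0.15 to 1.21. Bbs9, a BBSome subunit, read 4.38 and 4.57 in negative, 6.14 and 5.23 in low and 4.55 and 4.49 in high cells. Both low arrays were above the other 4, and the difference of 1.21 (SE 0.30) had an adjusted p of 0.0725. The chaperonin-like Bbs10 and Bbs12, which help to assemble the BBSome, had all but 1 array at or below background.

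Tctn1, Tctn2 and Tctn3, tectonics of the transition zone, also had their highest means in low cells, where 24.2% of all genes did. For each both low arrays were above both negative ones, where 23.0% of all genes were. These 3 are among the 25 primary cilium genes counted above, and 0 of them passed in any comparison. Tctn3 read 5.21 and 4.66 in negative, 5.57 and 5.59 in low and 5.58 and 4.94 in high cells, and its difference of 0.64 (SE 0.29) had an adjusted p of 0.303.

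**Figure D3:**
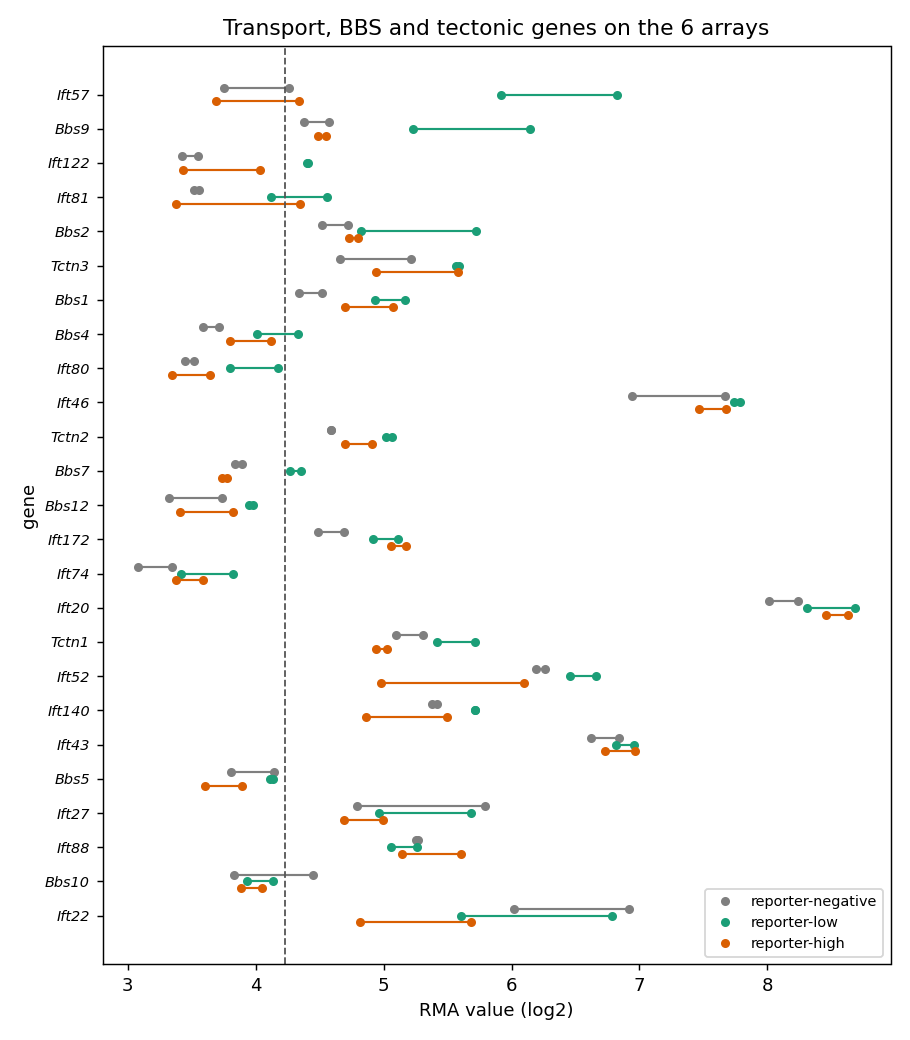
RMA values (log2) of the 25 primary cilium genes, drawn as in the plot of motile genes and ordered by the low minus negative difference. The green low points lie to the right of the grey negative points without overlap in 19 of the 25 genes, and Ift57 shows the largest difference.

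The motile cilium genes were split between the directions. Their median low minus negative difference was -0.02, 32 of 69 were positive, and both low arrays were above both negative arrays in 10 (14.5%) and below in 20 (29.0%). Over all genes 45.1% were positive, 23.0% had both low arrays above and 28.5% both below. The share below in the 69 was thus near that of genes in general. Without the Cfap genes 39 motile genes remained, with a median of -0.06. Of these, 6 had both low arrays above (15.4%) and 18 both below (46.2%). When each array was centred on its own median, the median of the 69 became -0.10 and that of all genes -0.11.

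In high against negative cells 58 of the 69 motile cilium genes had a higher mean (84.1%), where 59.3% of all genes did. Among genes above background this held for 18 of 25 motile genes (72.0%) and 45.8% of all genes. Among genes at or below it, this held for 40 of 44 motile genes (90.9%) and 84.0% of all genes. This split rests on the mean over all 6 arrays, the compared ones included. Motile genes above background were also dimmer, with a median level of 5.03 against 5.95 for all such genes. The part of signal level in these shares was not tested. The median high minus negative difference was 0.27 for the motile and 0.12 for the primary cilium genes, against 0.10 for all genes. Both high arrays were above both negative arrays in 37 of 69 motile genes (53.6%) and 7 of 25 primary genes (28.0%), where 32.9% of all genes were, and below them in 5 and 4, where 22.4% were. The high gate held the highest mean in 49 of the 69 motile genes (71.0%) and in 47.9% of all genes, and above background in 13 of 25 motile genes (52.0%) and 32.7% of all genes. Of the 25 motile genes above background, 12 had both high arrays above both negative ones (48.0%), where 25.1% of all such genes did. Of the 44 motile genes at or below background, 25 had both high arrays on top (56.8%), and their median was 0.24; of all genes at or below background 47.2% did, with a median of 0.21. Quantile normalization brought the motile median to 0.093, the primary median to 0.0023 and that of all genes to 0.017. Without the second high array the primary median was -0.087.

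From low to high cells the median change was -0.37 for the primary and 0.27 for the motile cilium genes, against 0.13 for all genes. Both high arrays were below both low arrays in 13 of 25 primary genes (52.0%) and above them in 0, where 20.4% and 35.3% of all genes were. For the motile genes the counts were 6 below (8.7%) and 41 above (59.4%). Above background 12 of 25 motile genes had both high arrays above both low ones (48.0%), where 26.2% of all such genes did. At or below it 29 of 44 did (65.9%), where 52.1% of all such genes did. The split by background has the same limits here as in high against negative cells. The motile median was 0.088 after quantile normalization and 0.15 without the second high array.

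**Figure D4:**
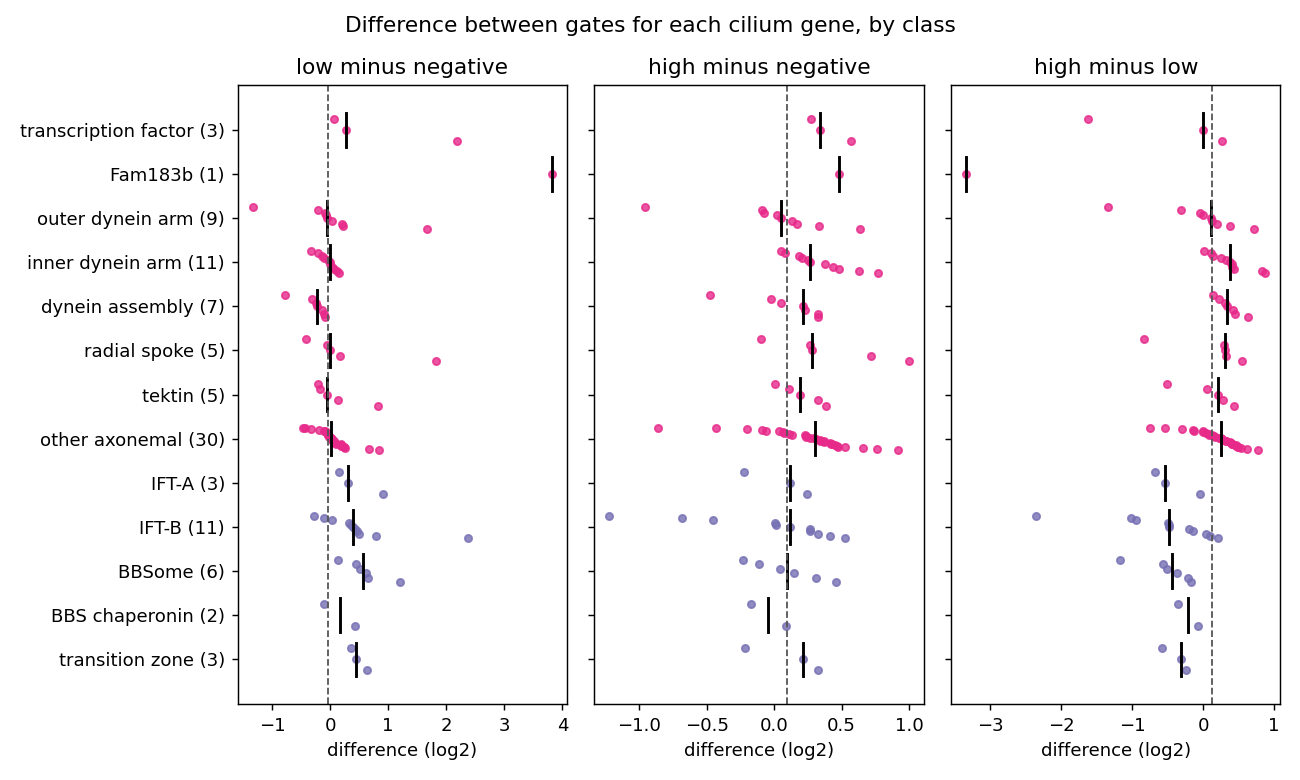
Log2 difference between gates for each of the 96 cilium genes, by class, with motile genes and transcription factors in pink, primary cilium genes in violet, a black bar at each class median and a dashed line at the median of all genes. In the low minus negative panel the transport, BBSome and transition zone medians lie right of the dashed line; in the high minus low panel they lie left of it, while most motile classes lie right.

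Genes of the same pathways outside the 96 were counted from lists. Beside these counts, 45.1% of all genes were higher in low than in negative cells, with a median of -0.03, and 23.0% had both low arrays above both negative ones. Of 24 other transport and BBSome genes, 21 were higher in low than in negative cells with a median of 0.28, and 14 had both low arrays above both negative ones (87.5% and 58.3%). Ttc8, a BBSome subunit without a Bbs symbol, was 3.70 and 3.79 in negative, 4.50 and 4.65 in low and 4.82 and 4.92 in high cells. It rose at least 1.27-fold in low (adjusted p = 0.0461) and at least 1.56-fold in high cells (adjusted p = 0.0237), the only gene of these lists to rise from negative to high. The first call was lost in 8 of 15 alternatives, among them without either negative or either low array (adjusted p up to 0.261), and the second without either negative array or the second high array (adjusted p 0.0506 to 0.173). Mkks, a chaperonin-like partner of the BBSome, fell in low cells, from 6.13 and 6.03 to 5.12 and 5.03 (log2 difference -1.01, SE 0.19, adjusted p = 0.0278). That call was lost without any 1 of the 4 arrays compared (adjusted p 0.117 to 0.193).

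Of 18 other transition zone genes, 14 were higher in low than in negative cells with a median of 0.28 and 0 passed. B9d1, a transition zone subunit, read 5.29 and 5.34 in negative, 6.52 and 5.87 in low and 4.60 and 4.68 in high cells, and fell from low to high cells by 1.55 (SE 0.25, adjusted p = 0.0191). Its call was lost without either negative array, the first low array or the second high array (adjusted p 0.0559 to 0.0831).

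Of 21 primary cilium signalling genes, 1 passed in low against negative cells, where 5.96% of all genes did. The same gene passed in high against low cells, where 4.91% of all genes did. Arl3, a small GTPase that releases lipid-modified cargo in cilia, read 5.69 and 5.87 in negative, 7.83 and 7.56 in low and 6.84 and 6.38 in high cells. It rose 3.78-fold in low cells (log2 difference 1.92, SE 0.23, adjusted p = 0.0064), a call lost without the first or the second negative array (adjusted p 0.0569 to 0.0768). Its fall to high cells (-1.09, SE 0.23, adjusted p = 0.0483) was lost in 11 of 15 alternatives, among them without any 1 array other than the first high array (adjusted p up to 0.235). The class had a median low minus negative difference of 0.00.

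Of 43 other motile axoneme genes, 34 had a mean at or below background and 1 rose in low cells, where 3.42% of all genes did. That gene was Capsl, a calcium-binding protein gene found in ciliated cells, with 3.60 and 3.27 in negative, 4.77 and 4.74 in low and 3.38 and 3.04 in high cells. Low cells were at least 1.44-fold above negative (adjusted p = 0.0181) and high cells (adjusted p = 0.0117). The first call was lost without any 1 of the 4 arrays compared (adjusted p 0.0897 to 0.14) and the second without either low array (adjusted p 0.0711 to 0.0752).

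Of 23 genes of multiciliation and centriole amplification, 1 rose in low cells and 4 fell, where 3.42% and 2.54% of all genes did. The basal body gene Bbof1 rose at least 1.66-fold (adjusted p = 0.0418), a call lost without any 1 array other than the first low array (adjusted p 0.0513 to 0.248). E2f4, a cell cycle factor that also serves multiciliation, fell by 1.09 (SE 0.20, adjusted p = 0.0267), a call lost without any 1 of the 4 arrays compared (adjusted p 0.106 to 0.189). Myb, which drives both proliferation and multiciliation, read 7.97 and 8.17 in negative, 6.29 and 5.98 in low and 7.35 and 7.48 in high cells (low minus negative -1.94, SE 0.20, adjusted p = 0.00429). Plk4, the kinase that starts centriole duplication, read 6.16 and 5.97, then 4.59 and 4.56, then 5.44 and 5.47 (low minus negative -1.49, SE 0.18, adjusted p = 0.0064). Stil, its partner, went from 5.59 and 5.09 in negative to 3.95 and 4.11 in low cells (at least 2.16-fold lower, adjusted p = 0.0248). The call for Myb was lost without the second negative array (adjusted p = 0.0527), that for Plk4 without either negative array or the second low array (up to 0.0804), and that for Stil without any 1 of the 4 arrays compared (up to 0.167). Myb was higher in high than in low cells by 1.28 (adjusted p = 0.018), a call lost without any 1 array other than the first high array (up to 0.114). Plk4 was higher there by 0.88 (adjusted p = 0.0434), lost without any 1 of the 6 arrays (up to 0.195). In the same comparison of low with negative cells 8 of 9 cell cycle markers fell.

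Of 13 markers of multiciliated cells, 3 rose in low cells, where 3.42% of all genes did, and those 3 are Fam183b, Rfx3 and Dnah9 themselves. Of the whole list, 7 had no array above background, and its summed linear level was 238 to 304 in negative, 989 to 1125 in low and 311 to 361 in high cells. Fam183b alone accounted for 30.7 to 76.9 of that level in negative, 630.4 to 744.5 in low and 67.1 to 68.5 in high cells. The median low minus negative difference of the 13 genes was 0.04, and 6 were lower on average in low cells. Both low arrays were above both negative ones in 4 (30.8%) and below them in 5 (38.5%), where 23.0% and 28.5% of all genes were. Cfap126, the gene whose locus carries the reporter, read 5.39 and 4.79 in negative, 5.16 and 6.13 in low and 5.15 and 5.0 in high cells. Its gates overlapped between negative and both others, with differences of 0.55 (adjusted p = 0.528) and -0.01 (adjusted p = 0.983), and whether its probe set reads the reporter allele is not given in the sources used here.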

How the data were processed

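RNA from sorted small intestinal crypt cells was hybridised to Affymetrix arrays, 2 for each of 3 reporter gates. Per the submitters' processing notes, the authors summarised the arrays by RMA in Affymetrix Expression Console 1.3.0.187, and the deposited values are log2 signals, already background-corrected and normalised. The columns of 12 of the 18 samples hold no values in the table used and were not analysed here. Of 35556 probe sets, 21789 carry 1 gene symbol on the platform annotation, 1621 several and 12146 were not listed; 21698 were matched by gene ID to current names, which left 19938 genes, each represented by its probe set with the highest mean.

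The 3 gates were fitted together in limma 3.58.1 (R 4.3.3), with p-values adjusted over all genes by the Benjamini-Hochberg method and called at an adjusted p under 0.05. The number of arrays limits the precision. Where no array of the lower gate was above background (4.23), a fold is given as at least the brighter mean over background. Same-numbered arrays deviated together at r of 0.103, 0.102 and 0.0788, and the numbers were not treated as pairs. Promoter windows were matched by symbol for 82 of the 96 genes. The fit was also run on values simulated independently for each gene and array. Such values hold no differences between whole arrays, so they cannot show how the fit handles those of the second high array.

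The members and gene lists were chosen with earlier results of these data known. Named were Foxj1, Rfx2, Rfx3, Fam183b, Dnah9, every called member, the member of each class with the highest mean or the widest range of gate means, up to 3 called genes of each pathway list, and Cfap126; other genes were picked for naming with their values in view. Alternative fits covered the prior, the arrays fitted, dim genes, probe sets, scaling, array weights, a replicate block, the threshold and each array left out.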

Additional observations from a re-analysis of the deposited data

How the results depend on the processing

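The count of cilium genes called in low against negative cells, 5 with all arrays, was 8 with only those 2 gates fitted, 11 with array weights, 2 at an adjusted p under 0.01 and 10 under 0.1, and 1 to 8 with 1 array left out. For high against negative cells it was 0, 3 at an adjusted p under 0.1 and 0 to 4 with 1 array left out; the 4, without the first high array, were Cfap410, Dnah10, Dnah6 and Ift52. For high against low cells it was 4, 1 at 0.01, 8 at 0.1 and 1 to 6 with 1 array left out. A gate left with 1 array was assumed to vary like the others. How many of all genes passed under each of these alternative settings is not given here. The changes in count can therefore not be read as particular to the cilium genes. With the replicate number as a block the 3 counts were 6, 1 and 4, adding Rsph9 in low (adjusted p = 0.0133) and Dnah8 in high cells (adjusted p = 0.0425); the pairing of numbers was not established. The motile median, low minus negative, was -0.10 with arrays centred on their medians and -0.05 to 0.03 with 1 array left out. High minus negative, it was 0.17 centred, 0.093 quantile-normalised and 0.18 to 0.33 with 1 array left out, and the primary median 0.0023 quantile-normalised and -0.087 to 0.16. High minus low, the motile median was 0.088 quantile-normalised and 0.15 to 0.30. The primary medians in the other comparisons moved by less than the replicate spread under all settings run. The 33 called differences rerun under the alternatives include those of Bbof1, E2f4, Ret, Snap25 and Vim. These 5 genes are outside the naming rule and were picked with their values known. Of the 33 differences 0 changed sign, but most of these calls were lost in at least 1 alternative. Of 1155 alternative values of differences that were not called, 42 changed sign. Quantile normalization turned the 272 higher and 667 lower genes of high against negative cells into 324 and 297, and the 202 and 776 of high against low cells into 326 and 616. The causes of these changes were not tested. Levels near background limit most motile genes, since signal there says little of RNA amount.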
